A study of Mus musculus with 9 samples.

Results

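The BCL2 family decides whether a cell survives or undergoes apoptosis through the mitochondrion. Its pro-survival proteins (BCL2, BCL-xL, MCL1 and A1) hold the others in check, its effectors BAX and BAK open pores in the outer mitochondrial membrane, and its BH3-only proteins (BIM, BID and PUMA among them) carry death signals to both. Blood progenitors die soon after cytokine is withdrawn, and A1 is a myeloid and lymphoid member whose gene is a known target of NF-κB. Here 10 mouse genes of the family were followed: the pro-survival genes Bcl2a1b and Bcl2a1d (A1), Bcl2, Bcl2l1 (BCL-xL) and Mcl1, the effectors Bax and Bak1, and the BH3-only genes Bcl2l11 (BIM), Bid and Bbc3 (PUMA). A probe was assigned to a gene where the accession given for it in the array files belongs to that gene. This found 15 of the 41174 probes on the array, covering 9 of the 10 genes. No probe carried an accession of Bcl2a1d, so that gene has no value here. All 15 probes were well above background on all 9 arrays, and all 15 were tested.

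The arrays compared FDCPmix cells, a mouse multipotent hematopoietic line kept in self-renewal conditions, after lentiviral transduction. The 3 groups, with 3 arrays each, received empty vector (EV), an shRNA against Gata2 (Gata2 KD) or an shRNA against Pu.1 (Pu.1 KD), and GFP sorting and RNA taken 5 days after transduction are common to all 3. Lentilox 3.7 carried the hairpins. The arrays list Pu.1 as Spi1, the gene of the ETS factor PU.1, and Gata2 is the gene of the zinc finger factor GATA2. A gene-specific shRNA is described for Gata2, and whether Pu.1 was targeted by more than 1 sequence is not given in the sources used here. The EV virus is the only control among these arrays, with no unrelated hairpin. The sort kept viable cells, so cells that had already died were not sampled, and in such bulk RNA fewer cells of a type and less RNA per cell cannot be told apart. Triplicate samples were transduced, and whether they began as separate cultures is not stated, so the p-values measure the spread between these samples, which may be technical.

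Values are log2 processed signal relative to the 75th percentile of the array, so a level of 0 is the 75th percentile and a difference of 1 is a doubling. Levels are compared between groups for one probe and not between probes. A gene with more than 1 probe is represented by its brightest, the one of highest mean level. The Gata2 level on its brightest probe fell by 1.61 in Gata2 KD against EV (limma, adjusted p = 0.00414), and that of Spi1 fell by 1.73 in Pu.1 KD (adjusted p = 0.00178). Spi1 also rose by 1.39 in Gata2 KD against EV (adjusted p = 0.0012), on 3 of 3 slides. Each slide carried 1 array of every group. All 9 of the progenitor markers examined, Kit and Cd34 among them, were well above background on all 9 arrays. Their levels did change. In Gata2 KD against EV 2 were called higher and 2 lower, Gata2 itself among the lower. In Pu.1 KD against EV 1 was higher and 2 were lower. EV replicate 3 stood apart from the other arrays, with a mean correlation of 0.960 with the rest over the tested probes against 0.971 to 0.978 for the other 8, and results that rest on it are given with and without it.

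The A1 genes are near-identical copies on mouse chromosome 9. The stretch around a PU.1-type motif in their promoters is shown because Bcl2a1b changed as described below. Bcl2a1c, the other copy with a probe, was well above background only in Gata2 KD. The windows are from RefSeq (GRCm38.p6), 5′ to 3′ on the strand of each gene, and all end before the annotated start. Capitals mark GGAAGTG, a 7-base ETS motif of the kind PU.1 binds. They lie at chr9:88956782-88956861 on the plus strand for Bcl2a1a, chr9:89199091-89199170 on the plus strand for Bcl2a1b, chr9:114329887-114329966 on the plus strand for Bcl2a1c and chr9:88731909-88731988 on the minus strand for Bcl2a1d.
Bcl2a1a: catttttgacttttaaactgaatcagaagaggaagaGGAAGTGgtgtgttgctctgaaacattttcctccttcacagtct
Bcl2a1b: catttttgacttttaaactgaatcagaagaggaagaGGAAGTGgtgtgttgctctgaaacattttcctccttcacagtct
Bcl2a1c: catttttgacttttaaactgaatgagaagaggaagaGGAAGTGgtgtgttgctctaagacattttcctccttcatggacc
Bcl2a1d: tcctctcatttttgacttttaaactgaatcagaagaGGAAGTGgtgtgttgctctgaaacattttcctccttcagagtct

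Over these 80 bases Bcl2a1a and Bcl2a1b were identical, and Bcl2a1b and Bcl2a1c shared 73. From the first base of the motif to the end of the window, 44 bases, Bcl2a1b and Bcl2a1d differed at 1 position. The motif began 102 bases before the annotated start in Bcl2a1a and Bcl2a1d, 146 before it in Bcl2a1b and 212 before it in Bcl2a1c. A search of both strands of the 300 bases around each annotated start found GGAAGTG in 3615 of 32851 promoters of the genome (11%) and in 3 of the 10 members, Bcl2a1b, Bcl2a1d and Bcl2l1. The 11% is a share of promoters and the 3 of 10 a count of genes, which have 15 promoters among them, so they are not on the same unit. Bcl2a1b and Bcl2a1d are also copies of one sequence. The Bcl2l1 match lay after the start of its transcript. The GATA motif AGATAAG was in 1000 promoters (3.04%) and in none of the 15 promoters of the members. A match is a description of letters and not of a bound site, and no binding data were used here. The sequence of the Bcl2a1b probe was not used here either, so how far it reads the transcripts of the other copies is unknown, and its values may be those of several A1 genes.

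Bcl2a1b had the largest change of the 9 measured genes in both comparisons that involve Gata2 KD. Its level was -3.06, -3.43 and -1.50 in EV replicates 1 to 3, a mean of -2.66 ± 1.03 (SD, n = 3). In Gata2 KD it was 2.85, 2.82 and 2.50, a mean of 2.72 ± 0.20 (SD, n = 3), and in Pu.1 KD -4.06, -5.12 and -4.40, a mean of -4.53 ± 0.54 (SD, n = 3). The 3 groups did not overlap, with Gata2 KD highest and Pu.1 KD lowest. Bcl2a1b therefore rose by 5.39 (SE 0.49) in Gata2 KD against EV, a 41.9-fold difference with a 95% interval of 4.28 to 6.50 on the log2 scale (limma, adjusted p = 0.00037). Within the 3 slides the rise ran from 4.32 to 6.29. Without EV replicate 3, whose level lay 1.56 above the next EV array, it was 5.97. Under normexp background correction, which compresses dim signals, it was 4.39.

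The difference of Bcl2a1b between Pu.1 KD and EV was -1.87, with an interval of -2.98 to -0.75, and did not pass the test (limma, adjusted p = 0.104). Pu.1 KD was lower on 3 of 3 slides, with differences of -2.56 to -1.34, which with the slide as a block passed the threshold (adjusted p = 0.0421). It did so in 3 of 20 alternatives, over which the adjusted p ran from 0.0387 to 0.309. Without EV replicate 3 the difference was -1.28 (adjusted p = 0.115), and under normexp it was -0.76. Set directly against each other, Gata2 KD was 152-fold above Pu.1 KD, a difference of 7.25 (SE 0.49, adjusted p = 3.72e-05). The size of this difference depends on the dim Pu.1 KD signal, and under normexp it was 5.16.

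Myeloid markers moved with Bcl2a1b in Gata2 KD against EV, and only in part in Pu.1 KD against EV. All 10 neutrophil markers, Mpo and S100a8 among them, were higher in Gata2 KD than in EV, and all 7 tested monocyte and macrophage markers were higher. Summed on the linear scale relative to the 75th percentile, the neutrophil markers reached 240.4 to 269.7 in EV, 1121 to 1335 in Gata2 KD and 105.6 to 124.6 in Pu.1 KD. For the monocyte and macrophage markers the sums were 33.4 to 37.1, 230.8 to 289.8 and 14.2 to 15.9. In Pu.1 KD against EV 8 of 10 neutrophil markers were called lower. Of the 7 monocyte and macrophage markers 2 were, Lyz2 by 1.37 and Adgre1 by 0.99 on the log2 scale. The other 5 were not called, and of these Csf1r, Trem2 and Ctss differed by 0.25, 0.12 and 0.09. The changes of the 7 ran from -1.37 to 0.25 with a median of -0.42, so they did not all fall. No marker of the neutrophil list was below background on any array, and Cd68 of the monocyte list had no probe. The part of these cell programs in the Bcl2a1b values was not tested.

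The plot of levels by array shows the 9 genes side by side.

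**Figure D1:**
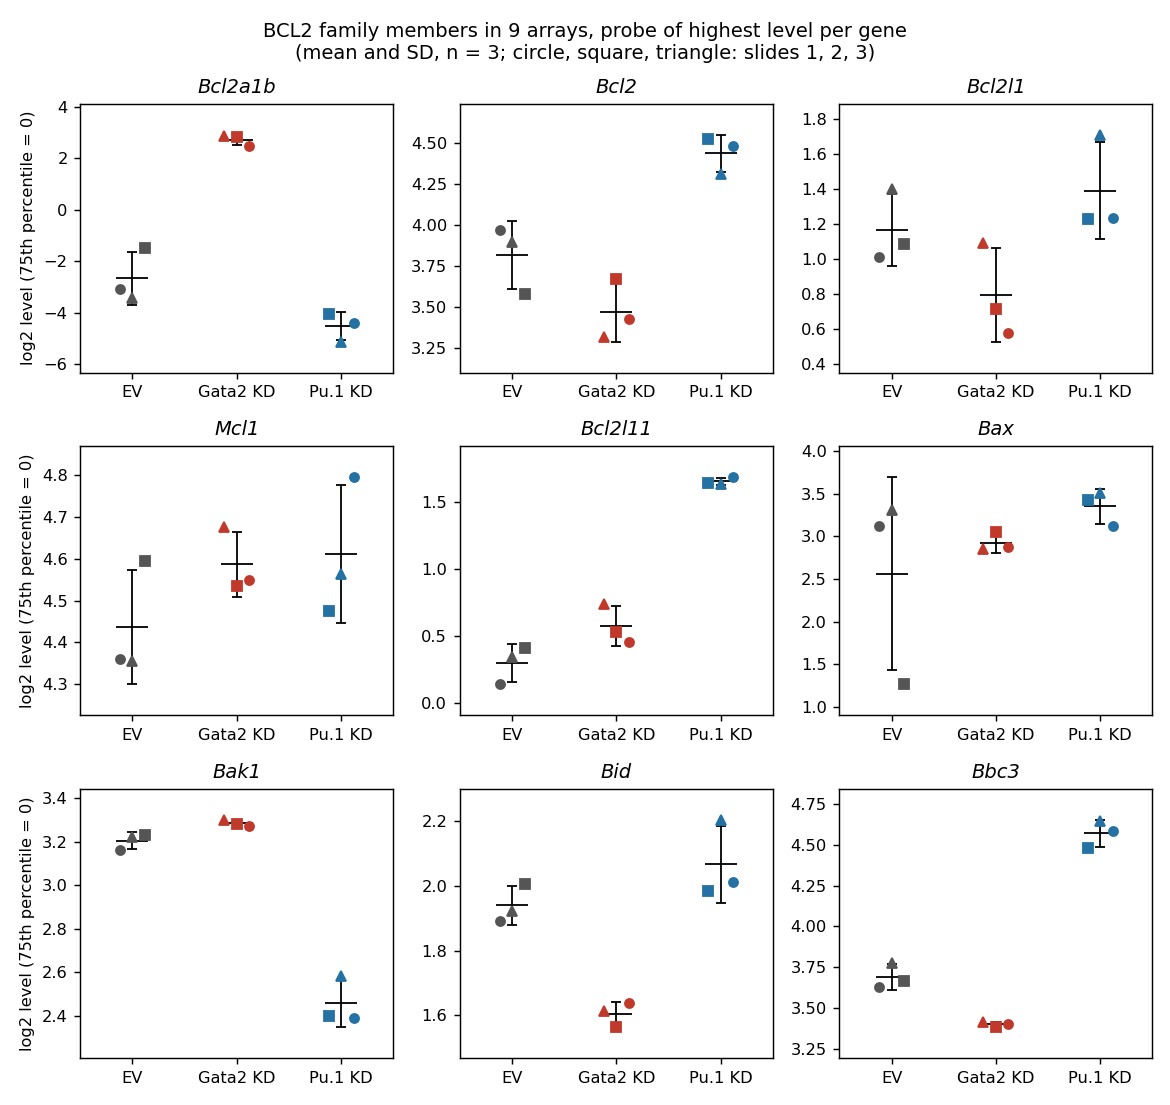
Level of the brightest probe of each gene (log2 processed signal, 75th percentile of the array = 0) in the 3 arrays of EV, Gata2 KD and Pu.1 KD, with each panel on its own scale. Symbols give the slide, and lines the mean and SD (n = 3). Bcl2a1b lies between 2.50 and 2.85 in Gata2 KD against -3.43 to -1.50 in EV, Bcl2l11 and Bbc3 are highest in Pu.1 KD, Bak1 is lowest there, and EV replicate 3 (square) is far below the other arrays for Bax.

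Bcl2, the founding pro-survival gene, ran in the opposite order to Bcl2a1b. Its brightest probe read 3.97, 3.89 and 3.58 in EV, 3.32, 3.67 and 3.42 in Gata2 KD and 4.52, 4.31 and 4.48 in Pu.1 KD. The EV and Gata2 KD arrays overlapped and the Pu.1 KD arrays lay above all others. Against EV neither difference passed the test. It was -0.35 (SE 0.16) in Gata2 KD (limma, adjusted p = 0.396) and 0.62 (SE 0.16) in Pu.1 KD (adjusted p = 0.105). The direct comparison did, with a difference of Gata2 KD minus Pu.1 KD of -0.97, or 1.96-fold (SE 0.16, adjusted p = 0.0062).

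The other Bcl2 probe, whose accession is that of a different transcript record, read 2.80, 3.20 and 2.70 in EV, 2.26, 1.79 and 1.69 in Gata2 KD and 3.24, 3.62 and 3.47 in Pu.1 KD. Here no group overlapped another. On this probe Bcl2 fell by 0.99 on the log2 scale in Gata2 KD against EV (SE 0.21, adjusted p = 0.0321) and differed from Pu.1 KD by -1.53 (adjusted p = 0.00207). The first of these calls was fragile. With an array left out its adjusted p ran from 0.0247 to 0.145, and it passed in 2 of 9 such fits, those without EV replicate 3 or without Gata2 KD replicate 1. The within-array gap between the probes changed by 0.64 between EV and Gata2 KD (exact permutation test, two-sided, p = 0.2). Over 18 such comparisons between probes of a gene the smallest p that 3 against 3 arrays allow is 0.1, and the lowest adjusted p was 0.4.

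Bcl2l1, which encodes BCL-xL, did not pass the test in any comparison on its 3 probes when group alone was fitted. The brightest read 1.01, 1.40 and 1.08 in EV, 1.09, 0.71 and 0.58 in Gata2 KD and 1.23, 1.71 and 1.23 in Pu.1 KD. EV overlapped both knockdowns, while every Gata2 KD array lay below every Pu.1 KD array. That difference was -0.60 (95% interval -1.07 to -0.12, adjusted p = 0.138) and was lower on 3 of 3 slides, from -0.65 to -0.52. With the slide as a block it passed (adjusted p = 0.00756), as it did under normexp (0.0481) and with the deposited log2 values (0.0269). The other probes gave -0.53 (adjusted p = 0.0816, and 0.0334 with the slide as a block) and -0.10.

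Mcl1, the short-lived pro-survival protein that blood progenitors depend on, showed no difference past the test, and its intervals were narrow on the brightest probe. Its brightest probe read 4.36, 4.36 and 4.60 in EV, 4.68, 4.53 and 4.55 in Gata2 KD and 4.47, 4.56 and 4.80 in Pu.1 KD, with all 3 groups overlapping. The difference from EV was 0.15 in Gata2 KD, with an interval of -0.18 to 0.48, and 0.17 in Pu.1 KD, with an interval of -0.15 to 0.50 (adjusted p = 0.833 and 0.826). The second probe gave 0.10 and -0.27, neither past the test, the latter with an interval of -0.71 to 0.18. On this probe Pu.1 KD was lower than EV on 3 of 3 slides, without overlap. Gata2 KD exceeded Pu.1 KD there by 0.37, also without overlap (limma, adjusted p = 0.412). The gap between the probes changed by 0.44 between EV and Pu.1 KD, and by -0.39 in the direct comparison. Both had p = 0.1, the smallest that the exact permutation test allows.

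Among the effectors, Bak1 separated Pu.1 KD from the other groups. Its brightest probe read 3.16, 3.22 and 3.23 in EV, 3.30, 3.28 and 3.27 in Gata2 KD and 2.40, 2.58 and 2.39 in Pu.1 KD. The Pu.1 KD arrays lay below all others. Bak1 fell by 0.75 on the log2 scale in Pu.1 KD against EV, or 1.68-fold (SE 0.12, limma, adjusted p = 0.0160), and its Gata2 KD level exceeded that of Pu.1 KD by 0.83 (adjusted p = 0.0027). In Gata2 KD against EV the difference was 0.08, with an interval of -0.19 to 0.35 (adjusted p = 0.933).

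The Bak1 call against EV had 2 limits. It was lost under median scaling (adjusted p = 0.220), with only the 2 groups fitted (0.0977) and without EV replicate 1 (adjusted p = 0.0515), EV replicate 2 (0.0657), Pu.1 KD replicate 1 (0.0875) or Pu.1 KD replicate 3 (0.0765), with the change between -0.81 and -0.72 in all 9 fits that left out an array. Over the 20 alternatives the adjusted p ran from 0.00146 to 0.220. The second Bak1 probe did not show it, at 1.24, 0.51 and 0.47 in EV and 0.56, 0.36 and 1.12 in Pu.1 KD, a difference of -0.06 with an interval of -0.80 to 0.68. The gap between the probes changed by -0.69 between these groups (exact permutation test, two-sided, p = 0.2).

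Bax, the other effector, had no difference past the test, and its EV mean was pulled down by 1 array. It read 3.12, 3.31 and 1.26 in EV, 2.85, 3.06 and 2.87 in Gata2 KD and 3.43, 3.51 and 3.12 in Pu.1 KD. The level of EV replicate 3 minus that of the next EV array was -1.85. The difference from EV was 0.36 in Gata2 KD (adjusted p = 0.918) and 0.79 in Pu.1 KD (adjusted p = 0.654). Without EV replicate 3 these were -0.29 and 0.14.

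Of the BH3-only genes, Bcl2l11 and Bbc3 both rose in Pu.1 KD. Bcl2l11 encodes BIM, which is raised when cytokine signals fail, and its brightest probe read 0.14, 0.35 and 0.41 in EV, 0.74, 0.53 and 0.46 in Gata2 KD and 1.65, 1.64 and 1.69 in Pu.1 KD. The Pu.1 KD arrays stood clear of the rest, and the Gata2 KD arrays lay just above EV. The rise in Pu.1 KD against EV was 1.36 (SE 0.14), or 2.56-fold (limma, adjusted p = 0.00281), and 1.23 to 1.54 within slides. Set directly against Pu.1 KD, the Gata2 KD level differed by -1.08 (adjusted p = 0.00139). In Gata2 KD against EV the difference was 0.28 (adjusted p = 0.437).

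The second Bcl2l11 probe was dim, and read -3.18, -3.17 and -2.05 in EV, -3.10, -3.01 and -2.95 in Gata2 KD and -2.48, -2.54 and -2.65 in Pu.1 KD. Its Pu.1 KD difference was 0.25, with an interval of -0.41 to 0.91. Its EV replicate 3 lay 1.12 above the other EV arrays, and without it the difference was 0.63, with an interval of 0.31 to 0.94 (adjusted p = 0.0793). The gap between the probes changed by 1.11 between EV and Pu.1 KD, with p = 0.1, the smallest that the exact permutation test allows. Of the 2 probes of this gene, which has several transcripts, only the brightest passed.

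Bbc3 encodes PUMA, a BH3-only protein known as a target of p53. It read 3.63, 3.78 and 3.66 in EV, 3.42, 3.38 and 3.40 in Gata2 KD and 4.48, 4.64 and 4.59 in Pu.1 KD, and the 3 groups did not overlap. It rose by 0.88 (SE 0.12), or 1.84-fold, in Pu.1 KD against EV (limma, adjusted p = 0.00896). Within slides the rise was 0.82 to 0.96, and it passed in all 9 fits that left out an array. The call was lost under median scaling (adjusted p = 0.0984) and with only the 2 groups fitted (0.0686), where the adjusted p over 20 alternatives ran from 0.000478 to 0.0984. Its difference in Gata2 KD was -0.29, lower on 3 of 3 slides but not past the test (adjusted p = 0.307). Its level in Gata2 KD was 2.25-fold below that in Pu.1 KD (difference -1.17, SE 0.12, adjusted p = 0.000408).

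Bid, which links death receptors to the mitochondrion once caspase-8 has cut it, read 1.89, 1.92 and 2.005 in EV, 1.61, 1.56 and 1.64 in Gata2 KD and 1.98, 2.20 and 2.01 in Pu.1 KD. The Gata2 KD arrays lay below all others. The difference was -0.33 against EV (95% interval -0.62 to -0.05, adjusted p = 0.231) and -0.46 against Pu.1 KD (interval -0.74 to -0.18, adjusted p = 0.0535), so neither passed the test. The second came within reach of it and passed under 6 of 20 alternative settings, over which the adjusted p ran from 0.00676 to 0.366.

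**Figure D2:**
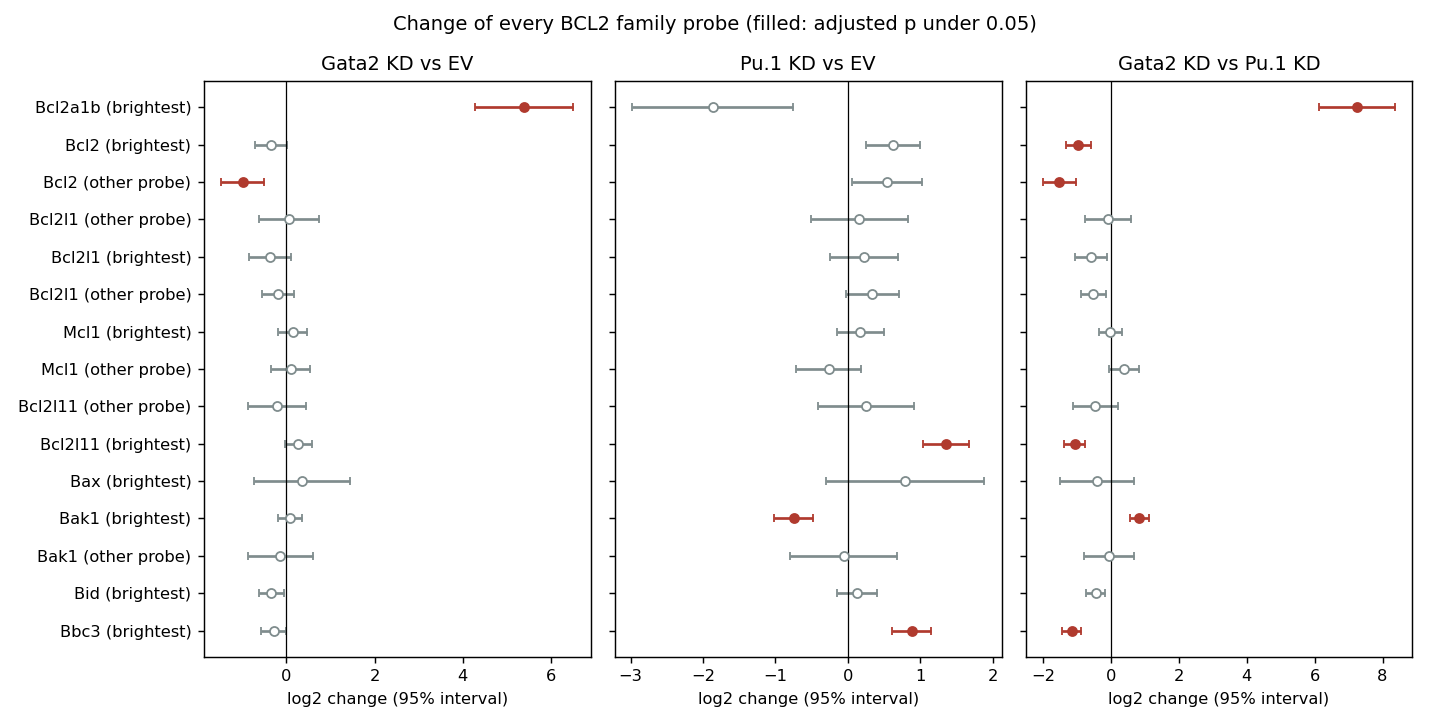
Log2 change of each of the 15 probes in the 3 comparisons, with 95% intervals from limma. Each panel has its own horizontal scale and filled points have an adjusted p under 0.05. Bcl2a1b changed by 5.39 in Gata2 KD and 7.25 in Gata2 KD against Pu.1 KD, and the only other filled point of Gata2 KD against EV is the second Bcl2 probe at -0.99. In Pu.1 KD against EV the filled points are Bcl2l11 at 1.36, Bbc3 at 0.88 and Bak1 at -0.75.

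Counted by the brightest probe, 1 of the 9 genes passed the test in Gata2 KD against EV, Bcl2a1b upward, where 5.2% of all tested probes did (2.96% upward and 2.24% downward). In Pu.1 KD against EV 3 of 9 passed, where 2.7% of all probes did. They were 2 upward (background 1.27%), Bcl2l11 and Bbc3, and 1 downward (background 1.42%), Bak1. In Gata2 KD against Pu.1 KD 5 of 9 passed against a background of 9.63%. Bcl2a1b and Bak1 were higher in Gata2 KD (background 4.86%) and Bcl2, Bcl2l11 and Bbc3 lower (background 4.77%). Groups did not overlap for 5, 5 and 8 of the 9 genes, where 18.6%, 17.3% and 25.8% of all probes did not. The median change of the 9 was 0.08, 0.22 and -0.46, against -0.09, -0.04 and -0.04 over all probes. The comparisons share arrays and are not independent of each other. The genes were chosen with earlier results of these data known. They count by 1 bright probe each, while the background shares are over all tested probes, dim ones included. The counts are therefore a description and not a test of the family.

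The direct comparison therefore had genes on each side. The pro-survival gene Bcl2a1b and the effector Bak1 were higher in Gata2 KD than in Pu.1 KD. The pro-survival gene Bcl2 and the BH3-only genes Bcl2l11 and Bbc3 were lower. Neither side was made up of pro-survival or pro-death genes alone. Against EV, Bak1 differed by 0.08 in Gata2 KD, which was not called, and by -0.75 in Pu.1 KD. All 5 direct differences, on the brightest probes, passed the test under each of the 20 alternative settings that were run on single probes. The second probes did not all follow. In the same comparison the second Bak1 probe differed by -0.08 (adjusted p = 1.0) and the second Bcl2l11 probe by -0.47 (adjusted p = 0.528), and with second probes in place of the brightest both genes lost their call, while with the mean of a gene's probes Bak1 did.

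**Figure D3:**
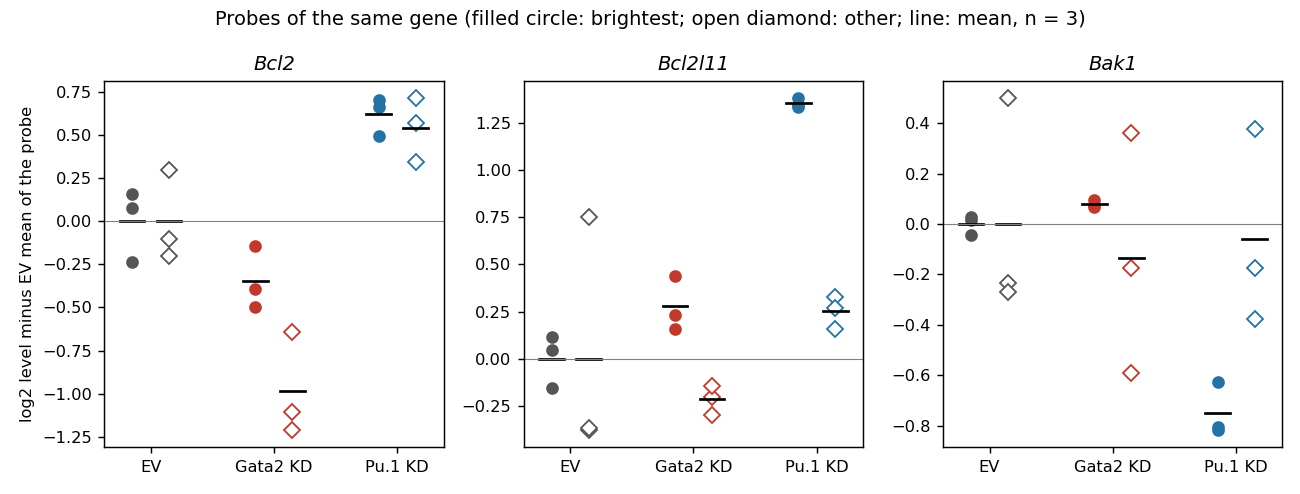
Levels of both probes of Bcl2, Bcl2l11 and Bak1 in each array, as log2 level minus the EV mean of the same probe (filled circles, brightest probe; open diamonds, the other probe; lines, means of 3 arrays). The Bcl2 probes keep one order of groups, with means of -0.35 and -0.99 in Gata2 KD. In Pu.1 KD the Bcl2l11 probes lie at 1.36 and 0.25 and the Bak1 probes at -0.75 and -0.06, and the second Bak1 probe spreads widely in every group.

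Of the wider BCL2 family, 13 of 16 further genes had a tested probe. Bmf and Pmaip1 rose in Gata2 KD against EV, and none of the 13 fell. Bcl2a1c was called higher too but is set apart below. For this list and those that follow, 5.2% of all tested probes passed in Gata2 KD against EV. The share was 2.7% in Pu.1 KD against EV and 9.63% in the direct comparison. These lists too were chosen with earlier results of these data known. Bcl2a1c, another A1 copy, was not well above background on any EV or Pu.1 KD array and was so on all 3 Gata2 KD arrays (-1.04, -1.27 and -1.23). It thus met the filter for testing only through Gata2 KD, the group where it was high. Its calls as higher are therefore no separate support. As lower bounds, it was 25.9-fold higher in Gata2 KD than in EV and 33.2-fold higher than in Pu.1 KD. The limma differences of 5.24 (adjusted p = 0.000211) and 6.02 (adjusted p = 5.18e-05) used values of EV and Pu.1 KD that were not well above background. Bmf, a BH3-only gene whose protein is held on the cytoskeleton, rose by 2.48 from -1.37 ± 0.30 to 1.102 ± 0.23 (SD, n = 3 each, adjusted p = 0.000208). Pmaip1, which encodes NOXA, the BH3-only partner of MCL1 and A1, rose by 1.24 (SE 0.23, adjusted p = 0.0184). Bcl2a1c aside, the genes that rose were thus BH3-only genes. The sequence of the Bcl2a1c probe was not used here, so how far it reads the other A1 copies is unknown. The median of the 13 was -0.15 against -0.09 over all probes. In Pu.1 KD against EV no gene of the 13 passed. In the direct comparison Bmf and Pmaip1 were higher in Gata2 KD, as was Bcl2a1c with the limit given above. Bnip3l, a mitophagy receptor, was lower, with a difference of -0.54 (adjusted p = 0.0289).

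Downstream of the mitochondrion, none of 11 apoptosome and caspase genes passed in Gata2 KD against EV, with changes from -0.32 to 0.29. With 5.2% of all probes passing, none of 11 is near the background share. In Pu.1 KD 2 fell, the initiator Casp9 by 0.83 (SE 0.15, adjusted p = 0.0296) and the executioner Casp6 by 0.89 (SE 0.14, adjusted p = 0.0171), on the log2 scale. Against Pu.1 KD, both were higher in Gata2 KD, by 0.78 and 0.84. The list median in Pu.1 KD was -0.19. Of 9 tested inhibitor of apoptosis (IAP) genes and their antagonists none passed against EV, again near the background shares. Birc3, which encodes cIAP2, exceeded its Pu.1 KD level by 0.89 in Gata2 KD (limma, adjusted p = 0.0103).

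Among 10 tested death receptor genes, Tnfrsf1a, the main TNF receptor, rose by 2.40 in Gata2 KD against EV (SE 0.19, adjusted p = 0.000182) and was higher than in Pu.1 KD by 2.88. Fas passed against EV in both knockdowns, rising by 0.72 in Gata2 KD (adjusted p = 0.0277) and by 1.12 in Pu.1 KD (adjusted p = 0.00828). The other 8 did not pass against EV. Of the 16 tested regulators known to act on family genes, the NF-κB pathway genes Nfkbia and Relb rose in Gata2 KD, by 1.82 (adjusted p = 0.000375) and 1.42 (adjusted p = 0.00104), and none passed in Pu.1 KD against EV. In the direct comparison Nfkbia, Relb and the kinase gene Pim1 were higher in Gata2 KD, while the p53 ligase gene Mdm2 and Ddit3, which encodes the stress factor CHOP, were lower, with differences of -1.20 and -0.89 (adjusted p = 0.0207 and 0.00384).

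Inflammatory cell death genes, set beside the apoptosis lists, moved in 3 of 6 cases in Gata2 KD against EV. Gsdmd, which encodes the pore protein gasdermin D, rose by 1.89 (adjusted p = 9.79e-05), and Casp1 and Pycard by 0.64 and 0.65 (adjusted p = 0.0342 and 0.0488). In Pu.1 KD Casp4 rose by 1.61 (adjusted p = 0.00233) and Gsdmd fell by 0.69 on the log2 scale (adjusted p = 0.0353). The myeloid marker sums given beside Bcl2a1b stand beside these genes too. The megakaryocyte marker sum was 144.3 to 169.0 in Pu.1 KD against 56.9 to 74.8 in EV, with 2 of 6 markers called higher. In Gata2 KD that sum was 58.7 to 89.7, with 1 of 6 called higher than in EV. The erythroid sum was 15.3 to 17.7 in Pu.1 KD against 9.15 to 10.2 in EV, with Klf1 and Epor called higher. The mast cell and basophil sum was 125.7 to 145.1 in EV, 24.8 to 26.8 in Gata2 KD and 89.7 to 97.9 in Pu.1 KD. The part of these shifts in the changes of Bcl2l11, Bbc3, Bak1 or Bcl2 was not tested.

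**Figure D4:**
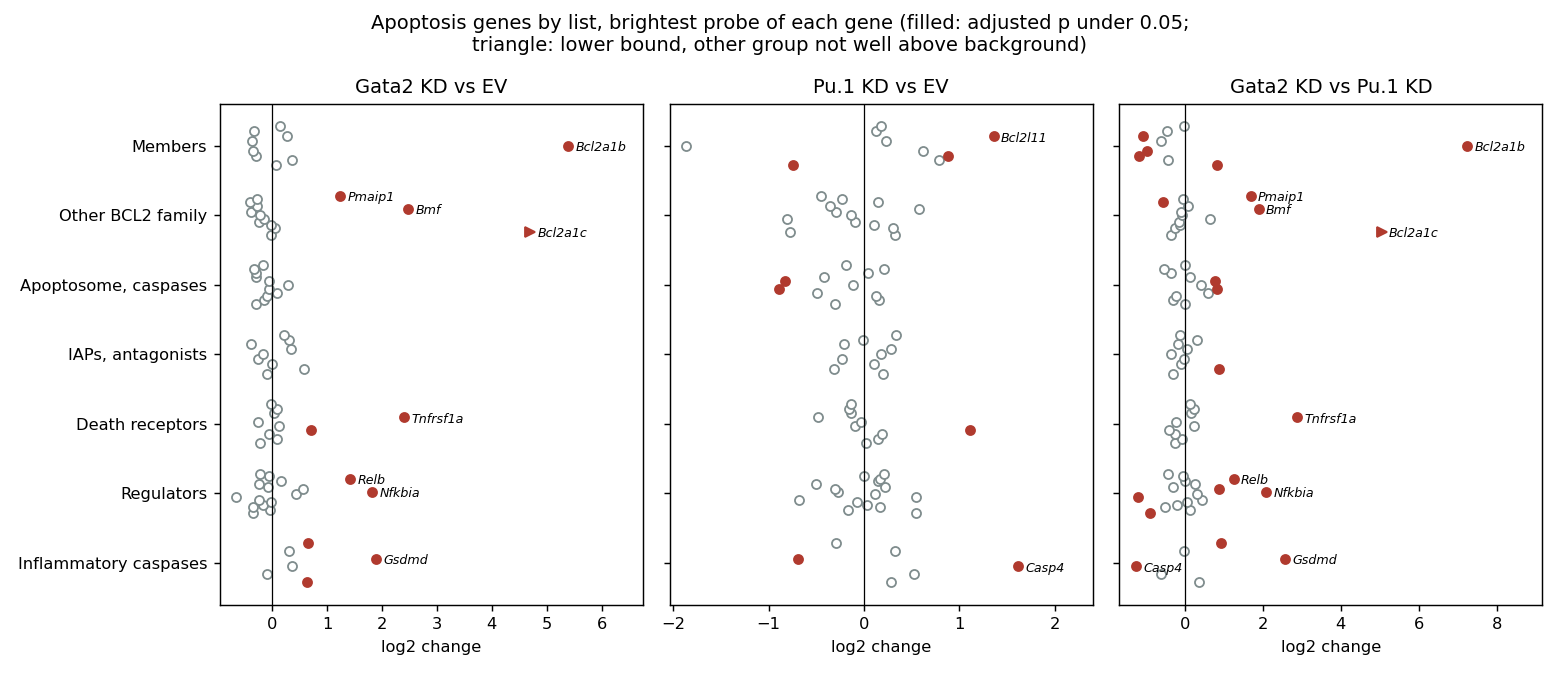
Log2 change of the brightest probe of each gene, by list, in the 3 comparisons (filled, adjusted p under 0.05; triangle, lower bound for Bcl2a1c), each panel on its own scale. Names are given for the called genes farthest from 0. In Gata2 KD against EV the 11 apoptosome and caspase genes lie between -0.32 and 0.29 and the called genes of all lists lie to the right, up to Bcl2a1b at 5.39, while in Pu.1 KD against EV the ends are Casp4 at 1.61 and Casp6 at -0.89 among called genes.

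The genes whose levels ran most like a member over the 9 arrays were found among 15482 others by Pearson's r, which here largely reflects the difference between 3 groups. For Bcl2a1b they were Akna, Pilra and Pram1 (each r = 0.996), of which Pilra, a paired immunoglobulin-like receptor gene, differed by 5.00 in Gata2 KD and -1.60 in Pu.1 KD against EV. For Bcl2l11 they were Casp4 (r = 0.995), Marcks (r = 0.987) and Igtp (r = 0.986). For Bbc3 they were Kif5a (r = 0.994), Tmem109 and Vat1l (both r = 0.992). For Bak1 the nearest was Gpx1 (r = 0.993), a glutathione peroxidase gene with a difference of -2.60 in Pu.1 KD against EV. Mcl1, whose groups overlapped, had the weakest nearest gene, Enpp1 (r = 0.933). The nearest of the others were Yod1 for Bcl2l1 and Arl6 for Bid (both r = 0.990) and Tle5 for Bcl2 (r = 0.969). None is named for Bax, whose variation lies mainly in EV replicate 3.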

How the data were processed

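For the 9 arrays the authors deposited intensity values as Agilent Feature Extraction 10.1.1.1 wrote them, of which the processed signal (background-subtracted within the array, not normalized between arrays) was used. They also deposited 1 table of log2 values whose scaling is not given in the sources used here, used only as an alternative. Spots with an outlier flag were treated as missing, the log2 values of spots that carry one probe were averaged, and the 75th percentile over the distinct probes of the array was subtracted. A probe was tested when well above background on at least 3 arrays, a probe with several spots counting when at least 50% of them were, and when it had at least 2 values in each group (36585 of 41174 probes). Between 80.4% and 89.6% of spots per array read well above background, no spot was saturated, and the number of arrays limits the precision.

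Accessions without versions were matched to RefSeq (GRCm38.p6), which named 23374 probes (16535 genes). The array design is annotated to another build, so coordinates are those of the RefSeq promoter table only. Groups came from the sample titles. All 3 comparisons used limma 3.58.1 in R 4.3.3 on all 9 arrays (lmFit, contrasts.fit, eBayes), two-sided, and p-values were adjusted by Benjamini-Hochberg across the tested probes (threshold 0.05). The fit was tested on simulated data. For a lower bound, each array of the dim group was given the lowest value that was well above background on it, or the probe's own value if higher, and the mean of these was subtracted from the bright group's mean.

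All members were named, with Gata2, Spi1 and the called genes of the pathway lists, and the genes most like a member. The members, pathway lists and marker lists were chosen with earlier results of these data known. Replicate numbers did not pair the samples, since deviations of same-numbered arrays correlated at -0.55 to 0.65, so the replicate block is an alternative. The others were the slide as a block, normexp with an offset of 50 (on the median signal, as no mean signal was used here), quantile normalization, median scaling, filters on dim probes, the outlier-flagged spots included, the deposited log2 values, eBayes with trend and robust settings, fits of only the 2 groups compared, a 2-fold minimum, other choices of probe and each array left out.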

Additional observations from a re-analysis of the deposited data

How the results depend on the processing

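Of 11 calls over the 15 probes and 3 comparisons, 8 passed under all 20 alternatives run on single probes and none of the 11 changed sign. The exceptions were Bbc3 and Bak1 in Pu.1 KD against EV and the second Bcl2 probe in Gata2 KD against EV. In Gata2 KD against EV the count of genes called went from 1 to 2, Bcl2 joining Bcl2a1b, with the second brightest probe or the mean of all probes. In Pu.1 KD against EV the count of 3 fell to 1 with a 2-fold minimum, median scaling or only the 2 groups compared (Bcl2l11 each time) and with the second brightest probe or the mean of all probes (Bbc3 each time). Over all probes a 2-fold minimum, median scaling and the 2-group fits called 523, 377 and 223, against 986 in the main fit. The gene count was 5 with trend and robust settings (1575 probes called) or with the deposited log2 values (1785), which added Bcl2 and Bcl2a1b. It was 4 with the slide as a block (Bcl2a1b added, 1875 probes) or normexp (Bcl2 added, 1400 probes). In the direct comparison the count of 5 fell to 3 with a 2-fold minimum (Bak1 and Bcl2 lost) and with the second brightest probe (Bak1 and Bcl2l11 lost), and to 4 with the mean of probes (Bak1 lost). It rose to 7 with the slide as a block, normexp or the deposited values (Bid and Bcl2l1 added) and to 6 with quantile normalization, the filter on all 9 arrays or trend and robust settings (Bid added). The calls over all probes rose too. The settings with 7 called 5168, 3752 and 4553 probes, and those with 6 called 3666, 3678 (of 31716) and 4126, against 3524 in the main fit. With each array left out the counts were 1 to 1, 2 to 3 and 5 to 5. The cause was not tested, except that a 2-fold minimum removes smaller changes by construction and a second probe is another measurement. Bcl2a1b, Bax, Bid and Bbc3 have 1 probe each and kept it in the second-probe setting, so their calls there could not change.

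With the replicate number as a block the Pu.1 KD count was 1 and Bbc3 (adjusted p = 0.0641) and Bak1 (0.0976) were lost. The numbers share only a label, with deviations of same-numbered arrays correlated above 0.1 in 4 of 9 pairs. Those of same-slide arrays were above 0.1 in 8 of 9 pairs, and with the slide as a block Bbc3 (0.00653), Bak1 (0.0107) and Bcl2l11 (0.00438) passed in Pu.1 KD. Over all probes, the alternatives to 1902, 986 and 3524 calls ran from 1072 to 2886, 223 to 1875 and 1883 to 5168. Bcl2a1b was dim in EV and Pu.1 KD, and its rise in Gata2 KD ran from 4.39 under normexp to 5.97 without EV replicate 3.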
